A study of Mus musculus with 23 samples.

Results

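Transcripts that SRF-VP16 moved away from both control plasmids were sought in E81-/- and E100-/-, 2 mouse embryonic stem (ES) cell lines that the labels mark -/-. The comparison took 4 arrays of these lines with SRF-VP16 against 7 arrays of the same lines with the empty vector (3 arrays) or with SRFdM-VP16 (4 arrays), out of 23 arrays in the series. E81 gave 2 arrays for each plasmid. E100 gave 2 arrays with SRF-VP16, 2 with SRFdM-VP16 and 1 with vector, the array numbered 2. The other 12 arrays came from E14wt and from E99, labelled +/- or -/+, with the same 3 plasmids in duplicate. All cells were transfected, and total RNA was taken 72 hours later. The labels name neither the gene behind -/- and +/-, nor the change that dM stands for, nor the share of cells that took up plasmid. Nothing in them says whether duplicates were separate cultures, so the p-values measure the spread between these samples, which may be technical.

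SRF, serum response factor, is a transcription factor that binds a short AT-rich element with fixed ends, the CArG box. In most cells it is held at low activity until a partner protein joins it. One class of partners answers to free actin and drives cytoskeletal and muscle genes, and another answers to growth factor signals and drives immediate-early genes. VP16 is a herpesvirus protein whose strong activation domain, fused to a DNA-binding protein, turns that protein into a constant activator. The genes described here lie beyond the actin cytoskeleton and immediate-early classes, which are given as counts.

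For each probe set, a set of short probes against 1 transcript, the authors deposited 1 linear intensity per array. Of all values 29.1% were at or below 0, and values below a floor of 58 were raised to it before the log2 was taken. Array medians were 128 to 180 with SRF-VP16 and 54 to 209 with the controls. The E81 SRFdM-VP16 array numbered 1 stood apart from the rest. It had the lowest median of 54, 43.6% of values at or below 0, and a log2 ratio of 5′ to 3′ Gapdh signal of -0.93, against -0.18 to 0.47 on the other 10 arrays. ES cell identity was checked on 8 defining markers. Pou5f1, a core pluripotency factor, read 5994 on E100 SRF-VP16 replicate 2 and 15730 to 29982 on the other 10 arrays. Of the 8 markers 7 were above the floor on every array, while Dppa3 was above it on 1. Of 20 probe sets of fibroblast markers 7 were above the floor on 0 or 1 array, among them Fap, Col1a2 and Postn, and 11 on some arrays. The other 2, of Col5a1 (806 to 1481) and Col6a1 (419 to 1006), were above it on all 11 arrays.

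A transcript was called at an adjusted p under 0.05 (limma with the line as a block, Benjamini-Hochberg over all 8059 probe sets tested), and it was said to separate if it was called and all 4 SRF-VP16 arrays lay on 1 side of all 7 controls. Calls numbered 277 probe sets, 3.44% of those tested. By this rule 216 probe sets separated upward (2.68%) and 22 downward (0.273%). Counted whether called or not, 304 (3.77%) and 51 (0.633%) did not overlap the controls. Of these 238 probe sets, 27 belonged to the actin cytoskeleton and immediate-early lists and all 27 were higher. The other 211 comprised 189 higher and 22 lower. Changes of at least 2-fold were found in 202 of the 216 higher probe sets and in 18 of the 22 lower ones. The rule fixes that each of the 238 moved the same way in E81 and in E100. They kept their sign under each of 27 other processing settings in which they were tested. The rule also fixes this where 1 array is left out and where 1 line or 1 control plasmid is used alone. The call was kept whichever 1 array was left out for 123 of the 238, namely 115 of the 216 higher and 8 of the 22 lower. The split of calls between higher and lower also depended on that array of E81 with SRFdM-VP16: 244 higher and 33 lower calls (3.03% and 0.409%) became 293 and 131 without it.

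Few of the promoters of these transcripts held the element that SRF binds, and those that did are shown first because the plasmid encodes a protein that binds this element. The 250 bases before each RefSeq start site (GRCm38.p6) were searched on both strands for the CArG box. Promoters were found for 135 of the 167 higher genes outside the actin and immediate-early lists, and 5 of these genes (3.7%) had a match. The share was 1.62% among all genes tested. Of 20 matched higher genes inside those lists 8 had one, which is 40%. Of 13 matched lower genes 0 had one. The 5 matches stand in capitals below, each with 10 bases of flank, on the strand of the gene.
Igf2: cacagttttcCCATTTATGGagtcgccttc
Mknk2: cgggaccgcgCCTATAAAGGtggccgcgcc
Nr2f6: taccccatgcCCTTATAAGGgcggccgtcg
Pip5k1a: aagatacgaaCCTATATTGGcctactgagc
Ppif: agccagccgaCCAATAAAGGcggcggcgcg
The Igf2 stretch lies at chr7:142661407-142661436 and its match runs from 155 to 146 bases before a start site. The others lie at chr10:80676306-80676335 (Mknk2), chr8:71382010-71382039 (Nr2f6), chr3:95107020-95107049 (Pip5k1a) and chr14:25694114-25694143 (Ppif). The letters CATTCC, bound by TEAD factors, were found in 19.3% of the matched higher genes against 12.8% of all genes tested. The letters TGANTCA, bound by AP-1 factors, were found in 6.67% against 6.1%. Matches of different motifs can share bases, and a match is a description of the sequence, not of binding. Of the genes shown, Nr2f6, an orphan nuclear receptor, rose by 1.65 ± 0.25 on the log2 scale (SE; limma adjusted p = 0.0018), and Pip5k1a, a kinase that makes the membrane lipid PIP2, by 1.44 ± 0.23 (adjusted p = 0.0026). Mknk2 and Ppif rose by 1.09 and 1.28. Those calls were lost when any of 8 and 4 of the 11 arrays was left out, with adjusted p up to 0.19 and 0.11.

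The transcripts with the widest separation encode secreted proteins of the insulin-like growth factor (IGF) axis. IGFs are growth-promoting ligands, and the IGF-binding proteins hold them outside the cell. Igfbp6, which binds IGF2 with high preference, read 14409 and 16991 on the E81 arrays with SRF-VP16 and 18535 and 27179 on those of E100. The 7 controls ran from -298 through a median of -174 to 32, all at the floor. The groups were far apart, and SRF-VP16 was at least 320-fold higher (log2 change 8.32 ± 0.29, limma adjusted p = 1.4e-09). Igf2, the fetal growth factor, read 9083 and 15151 in E81 and 7306 and 11269 in E100, against controls of -1164 to -260 with a median of -771. This is at least 179-fold (7.48 ± 0.32, adjusted p = 5.1e-09). The second Igf2 probe set was below the filter, with mean intensities of -30 with SRF-VP16 and -104 with the controls, so the rise rests on 1 of the gene's 2 probe sets. By its suffix, the probe set that rose may bind related transcripts. Igfbp3, another carrier of IGFs, reached 167 to 444 against at most 156 in the controls, and its call was lost when any of 7 of the 11 arrays was left out (adjusted p up to 0.12). Igf1r, the receptor, read 895 to 1771 against 541 to 974 and was not called (adjusted p = 0.29). In all, 3 of the 10 IGF axis genes tested rose, with a median log2 change of 0.29 over the list. Counted with 1 probe set per gene, 233 of 5958 genes tested were called (3.91%), of which 207 rose (3.47%) and 26 fell (0.436%). The median over all probe sets tested was -0.05.

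**Figure D1:**
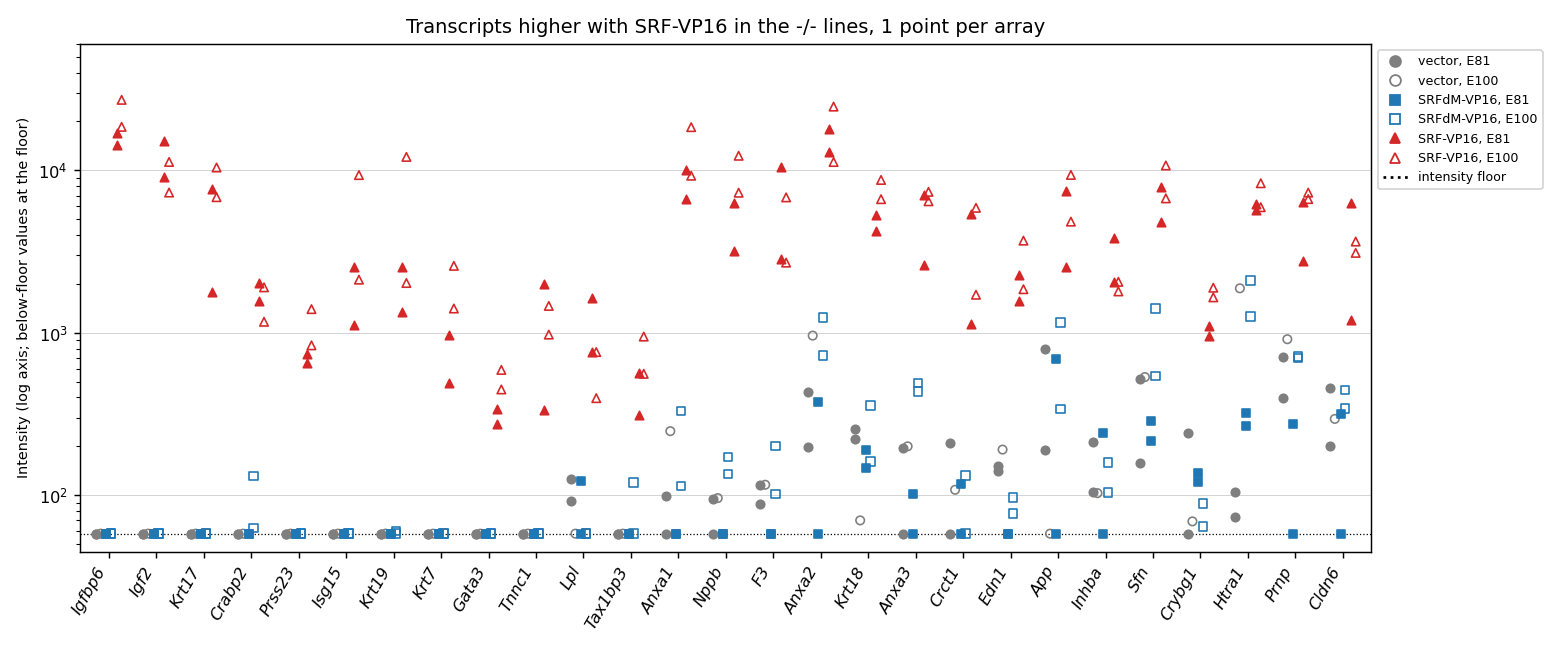
Intensity on a log axis of the 27 higher genes named by rule, 1 point per array, by plasmid and line, with values below the floor drawn at the dotted line. By the rule of choice, the red triangles of SRF-VP16 lie above every control point of the same gene. For Igfbp6, Igf2, Krt17, Prss23, Isg15, Krt7, Gata3 and Tnnc1 all 7 controls are at the floor.

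Epithelial keratin and junction genes rose in large number. Keratins form the intermediate filaments of epithelial cells, and desmosomes and tight junctions join the cells to each other. Of 20 such genes tested, 10 rose and 0 fell, with a list median of 1.62. The 10 were Krt7, Krt8, Krt17, Krt18, Krt19, Krt20, Dsp, Cldn3, Cldn4 and Cldn6. The median stayed between 1.51 and 1.57 when arrays were divided by their medians or quantile normalized, with 10 and 12 genes higher. The summed intensity of the list was 36100 to 86300 with SRF-VP16 and 8140 to 20300 with the controls. A gene could pass the filter on the 4 SRF-VP16 arrays alone, which can raise the count and median of this and other lists. Of the 25 epithelial members on the array, 7 had all controls at the floor, 2 of them on all 11 arrays.

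Krt18 and Krt8 are the partners of the first keratin filament made in the embryo. Krt18 read 4257 and 5297 in E81 and 6649 and 8732 in E100, while the controls spanned 70 to 357 with a median of 189. The lowest SRF-VP16 array was far above the highest control, and the change was 33.2-fold (5.05 ± 0.42, limma adjusted p = 6.6e-06). Krt8 read 4361, 3254, 12603 and 5000 (E81 replicates 1 and 2, then E100 replicates 1 and 2, the order used from here on) against 201 to 1047 (log2 change 3.40 ± 0.33). Krt19 read 1347, 2544, 12104 and 2026, and 6 of its 7 controls were at the floor. The E100 array numbered 1 was the highest of the 4 in Krt8 and in Krt19.

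Krt17, a keratin of basal and stressed epithelium, read 1776, 7698, 10416 and 6838 with SRF-VP16, and all 7 controls were negative (-594 to -191). It was at least 94.2-fold higher (adjusted p = 6.3e-07). Its probe set can bind related transcripts, and a second probe set of the gene rose by 4.82 on the log2 scale. Krt7 read 489, 967, 2584 and 1411 with all controls at the floor, at least 19.2-fold higher. Krt20 rose by 3.84 ± 0.45. Dsp, the desmosome plaque protein desmoplakin, read 4354, 5413, 6172 and 4742 against 182 to 1084 in the controls, a 10.2-fold rise. For Dsp and Krt8, which separated, the rule fixes that every SRF-VP16 array exceeded every control.

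The claudins seal tight junctions. Cldn6, a claudin of embryonic epithelium, read 1202, 6339, 3647 and 3105 against -2 to 458, with 1 control at the floor (log2 change 3.52 ± 0.55, adjusted p = 0.002). Cldn4 read 5916, 24850, 12720 and 17106 against 767 to 4601 (2.48 ± 0.49). Its call was lost without E81 SRF-VP16 replicate 2 (adjusted p = 0.073), and that of Cldn3 (2.17 ± 0.44) without E100 SRF-VP16 replicate 1 (adjusted p = 0.059). Sfn, the epithelial 14-3-3 protein, read 4834, 7862, 10720 and 6725 against 159 to 1414, a 16.6-fold rise. Krt81, a hair keratin, went the other way: all 4 SRF-VP16 arrays were at the floor and the controls ran from 317 to 640 (adjusted p = 0.00019). Fewer cells of a type and less RNA per cell cannot be told apart in these bulk samples, and the same holds for more.

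**Figure D2:**
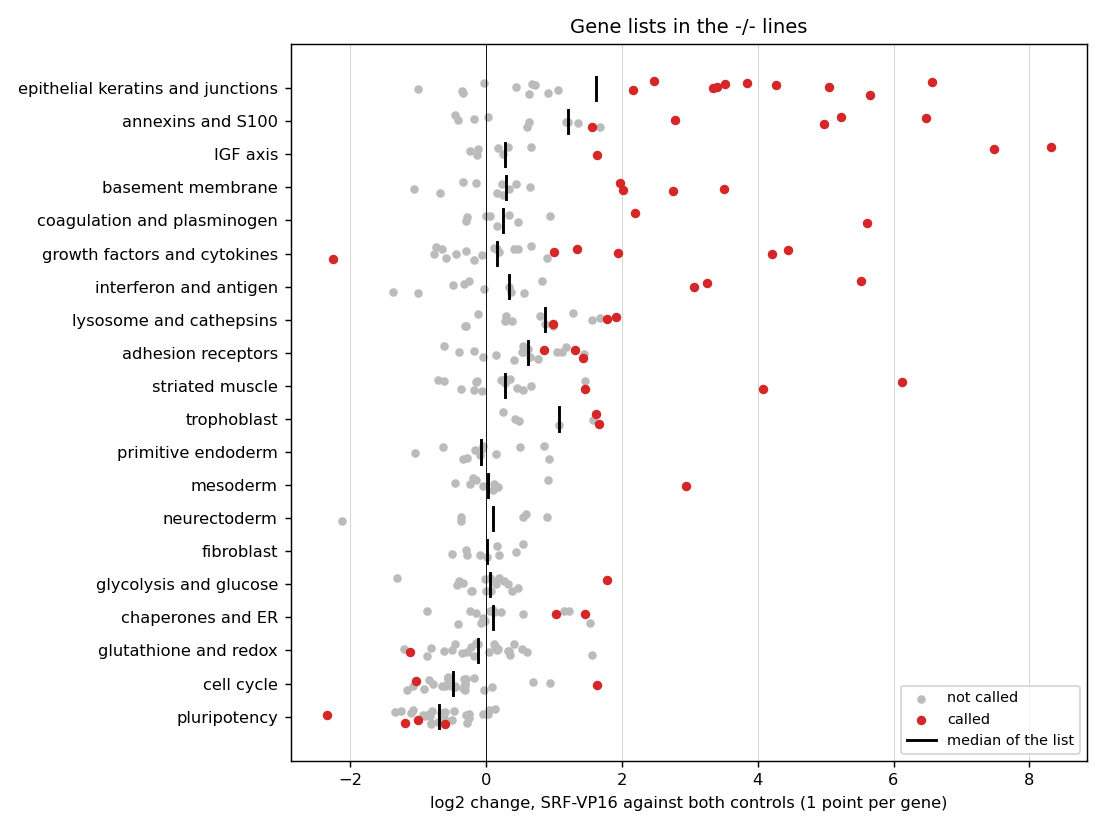
The log2 change between SRF-VP16 and both controls in the -/- lines for every tested gene of 20 lists, 1 point per gene, with called genes in red and a black bar at the list median. The epithelial list has the highest median at 1.62, and the pluripotency list the lowest at -0.69.

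Annexins are calcium-dependent proteins that bind membrane phospholipids, and S100 proteins are their small calcium-binding partners. Anxa1 read 10103, 6682, 18457 and 9273 against controls of -180 to 331 with a median of 99, and 3 of the 7 controls were at the floor. The 89.3-fold change (6.48 ± 0.39, limma adjusted p = 2.6e-07) therefore depends on the floor, and a second Anxa1 probe set rose by 4.48. Anxa2, which bridges membranes and actin, read 17897, 12997, 24697 and 11259 against -533 to 1239, and Anxa3 read 2598, 7066, 6452 and 7377 against -133 to 490. S100a6 was well expressed in the controls at 749 to 7432 and reached 10462 to 28132 (6.94-fold, adjusted p = 0.0019). Of 15 genes tested in this list 5 rose and 0 fell, with a median of 1.21. The fifth, Anxa4, overlapped the controls and its call was lost when any of 9 of the 11 arrays was left out (adjusted p up to 0.23).

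The blood-clotting and plasminogen list had 2 risers among 10 genes. F3 is tissue factor, the cell-surface protein that starts clotting. It read 2849, 10439, 2705 and 6819 against 1 to 201, a 48.9-fold change with 2 controls at the floor (5.61 ± 0.47, adjusted p = 6.6e-06). Plaur, the urokinase receptor, read 2260, 3801, 5116 and 3546 against 280 to 1549, a 4.55-fold rise (adjusted p = 0.0038). F3 and Plaur both separated, which fixes that their groups of arrays were apart. Tfpi, the inhibitor of tissue factor, read 702 to 3054 against 179 to 1420 and was not called (adjusted p = 0.4), nor was F2r, the thrombin receptor (adjusted p = 0.6). Prss23, a secreted serine protease outside this list, read 743, 653, 1399 and 837 with every control at the floor, at least 14.8-fold higher. Htra1, another secreted serine protease, read 6210, 5733, 8331 and 5932 against 73 to 2102 (13.2-fold, adjusted p = 0.0019).

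Basement membrane is the sheet of collagen IV, laminin and perlecan beneath epithelia. Of 14 genes tested 4 rose and 0 fell, with a median of 0.30. Quantile normalization gave 4 higher and 1 lower. Col4a1 read 9917, 5478, 14705 and 5250 against 270 to 4204 (6.77-fold, limma adjusted p = 0.0059), and Col4a2, its partner chain encoded beside it, read 3381, 2931, 4912 and 1885 against 361 to 1240 (3.95-fold). Sparc, a collagen-binding matrix protein, read 5644, 6499, 11150 and 5617 against 644 to 4212, and Hspg2, which encodes perlecan, 829, 4725, 2217 and 827 against -469 to 394. All 4 genes separated, and the rule fixes that the SRF-VP16 arrays of both lines exceeded all controls. Among adhesion receptors 3 of 19 genes rose with a median of 0.62, and 1 of 19 when arrays were divided by their medians. Itgav and Itgb1, the integrin alpha V and beta 1 chains, rose 2.49-fold and 1.81-fold (adjusted p = 0.0046 and 0.0059), and both calls were lost after that division. Ilk, the integrin-linked kinase, rose 2.7-fold, and its call was lost without E81 SRF-VP16 replicate 2 or E100 SRF-VP16 replicate 1 (adjusted p up to 0.1).

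Several secreted ligands rose. Edn1, the vasoconstrictor endothelin 1, read 1580, 2258, 3694 and 1855 against -137 to 191 (21.8-fold with 2 controls at the floor, adjusted p = 2.3e-05). A second Edn1 probe set changed by 0.68 ± 0.72 and was not called. Inhba, a subunit of activin A, read 2048, 3829, 1798 and 2060 against -151 to 243, an 18.5-fold change with 1 control at the floor (adjusted p = 4.4e-05). Hbegf, a ligand of the EGF receptor that was present in every control at 717 to 3191, read 3790, 6497, 7348 and 8702 (3.83-fold, adjusted p = 0.00058). Csf1, the macrophage growth factor, rose 2.53-fold, and its call was lost without E81 SRF-VP16 replicate 2 or E100 SRF-VP16 replicate 1 (adjusted p up to 0.06). Of 21 growth factors and cytokines 5 rose and 1 fell, with a median of 0.16, and 3 rose without E81 SRF-VP16 replicate 2 or E100 SRF-VP16 replicate 1. The fifth riser, Pdgfa, and the 1 that fell, Vegfc, overlapped the controls, and either call was lost when any of 9 of the 11 arrays was left out (adjusted p up to 0.24 and 0.21).

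Of 19 genes of striated muscle tested outside the actin list 3 rose and 0 fell (15.8% called, against 3.91% of all genes), with a list median of 0.29. Nppb, the natriuretic peptide BNP made by stretched heart muscle, read 3182, 6299, 12301 and 7286 against -66 to 172, a 70.2-fold change with 3 controls at the floor (6.13 ± 0.35, limma adjusted p = 1.5e-07). Tnnc1, cardiac troponin C, read 337, 2011, 1464 and 975 with all controls at the floor, at least 16.9-fold higher. Atp2a1, the fast-muscle calcium pump, reached only 124 to 289, and its call was lost without E100 vector replicate 2, E100 SRFdM-VP16 replicate 1, or replicate 2 of SRF-VP16 in either line (adjusted p up to 0.098). Nes, the intermediate filament protein nestin, read 2587, 2141, 3889 and 1216 against 23 to 388 (11.3-fold, adjusted p = 0.0019). Des, muscle desmin, rose 2.56-fold and its call was lost when any of 10 of the 11 arrays was left out (adjusted p up to 0.19). With the replicate numbers as a block Des was not called either.

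Isg15, a ubiquitin-like protein induced by interferon, read 2533, 1111, 9358 and 2124 while all controls were negative, at least 46.0-fold higher (adjusted p = 6.6e-06). Tapbp, the chaperone tapasin that loads peptides on MHC class I, read 2336, 4216, 5207 and 4734 against 293 to 737, an 8.36-fold rise (3.06 ± 0.26, adjusted p = 6.6e-06). A second Tapbp probe set rose by 1.57. B2m, the light chain of MHC class I, read 3253, 9629, 5236 and 7899 against 90 to 2066, and its call was lost when any of 5 of the 11 arrays was left out (adjusted p up to 0.12). The other 10 of the 13 interferon and antigen genes tested were not called, among them H2-K1, an MHC class I heavy chain, at 2403 to 3589 against 1122 to 2086 (adjusted p = 0.091). The list median was 0.34, and 0.02 without the E81 SRFdM-VP16 array numbered 1.

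Other genes named by rank came from several classes. Crabp2, which carries retinoic acid to its nuclear receptor, read 1559, 2037, 1905 and 1169 against -125 to 131 with 5 controls at the floor (adjusted p = 5.7e-06). It was the only 1 of 7 retinoid genes called. Lpl, lipoprotein lipase, read 757, 1637, 761 and 396 against -146 to 126. App, the amyloid precursor protein, read 2537, 7468, 4836 and 9376 against -86 to 1159, and its call was lost without E81 SRF-VP16 replicate 2 (adjusted p = 0.055). Prnp, the prion protein, read 2762, 6355, 7298 and 6657 against -158 to 913 (adjusted p = 0.0014). The rule by which these 4 were named fixes that their groups did not overlap. Crct1 (29.4-fold), Crybg1 (13.8-fold) and Tax1bp3 (8.4-fold) completed the ranked risers, all with some controls at the floor.

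Transcription factors of early lineages were also read, since the cells are pluripotent. Gata3, a factor of trophectoderm and other epithelia, read 275, 338, 591 and 448 with every control at the floor, at least 6.74-fold higher (adjusted p = 4.4e-05). This low level lost its call when the floor was raised to 301. Gata2, a factor of blood and trophoblast, read 551, 1083, 1296 and 986 against -85 to 445 (2.94 ± 0.55, adjusted p = 0.008), and it was the 1 gene called among 10 of mesoderm. In the trophoblast list 2 of 7 genes rose (0 without replicate 2 of SRF-VP16 in either line), Ets2 (3.16-fold) and the FGF receptor Fgfr2 (3.07-fold). All 7 had a positive log2 change, most of them not called, with a median of 1.08 (1.16 in E81 and 0.95 in E100). Genes of this list too could pass the filter on the SRF-VP16 arrays alone. The call of Ets2 was lost without E81 or E100 SRF-VP16 replicate 2 (adjusted p up to 0.081), and that of Fgfr2 without any of 5 of the 11 arrays (adjusted p up to 0.078). The summed trophoblast markers were 9630 to 11700 with SRF-VP16 and 2770 to 11000 with the controls, and their part in the result was not tested. None of 12 primitive endoderm, 6 neurectoderm or 9 fibroblast genes was called by limma, with medians of -0.07, 0.10 and 0.02. At an unadjusted p under 0.05 there were 2, 0 and 0. The summed fibroblast markers were 2650 to 3100 against 1920 to 3000.

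Of 30 pluripotency genes tested 4 were called lower and 0 higher. The list median was -0.69 (-0.32 in E81 and -1.08 in E100), and 27 of the 30 had a negative log2 change, most of them not called. Quantile normalization gave 10 lower and division by the median 4, and leaving out 1 array gave from 1 to 10. The 10 came without the E81 SRFdM-VP16 array numbered 1, and 1 remained without any of 8 others. The summed intensity was 85900 to 143000 with SRF-VP16 and 129000 to 231000 with the controls, which overlap. Klf2, a Krüppel-like factor of naive ES cells, carried the firmest fall. It read 1241, 591, 442 and 1012, while the controls ran from 3003 through 4304 to 4599. The fall was 5.08-fold (log2 change -2.34 ± 0.28, limma adjusted p = 0.00018), and the rule of choice fixes that the groups did not overlap. Nr5a2, a nuclear receptor that drives Pou5f1, read 1048, 704, 679 and 384 against 1206 to 2196, and Fgf4, the autocrine ES cell ligand, 5190, 5720, 3412 and 2771 against 5818 to 12031. Either of these calls was lost when any of 9 of the 11 arrays was left out, with adjusted p up to 0.13 for both. Klf5 (-0.60) overlapped the controls and was lost with the replicate numbers as a block and on leaving out any of 10 arrays.

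**Figure D3:**
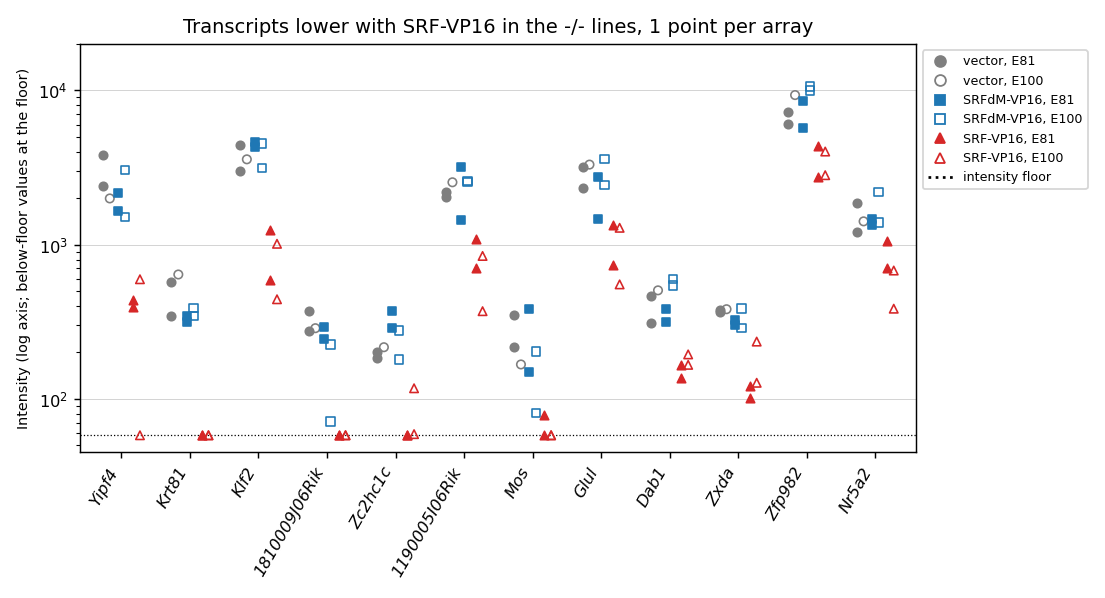
Intensity on a log axis of the 12 lower genes named by rule, 1 point per array, by plasmid and line, with values below the floor drawn at the dotted line. The rule of choice puts all 4 SRF-VP16 arrays of each gene below its controls. Klf2 and Zfp982 are bright in all 7 controls, whereas Krt81 and 1810009J06Rik are at the floor on all 4 SRF-VP16 arrays.

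The other falls were smaller in number and less stable. Yipf4, a Golgi membrane protein, read 436, 392, -125 and 596 against 1507 to 3800, and kept its call without any 1 array (log2 change -2.99 ± 0.51, adjusted p = 0.0042). Zfp982, a zinc finger gene whose probe set can bind related transcripts, read 4362, 2746, 4014 and 2819 against 5709 to 10595 (adjusted p = 0.0031). Glul, glutamine synthetase, fell by 1.53 on the log2 scale, and its call was lost without E81 SRF-VP16 replicate 2 (adjusted p = 0.077). 1190005I06Rik fell by 1.71 and kept its call without any 1 array. 1810009J06Rik and Zc2hc1c fell to or near the floor and were lost without either E81 SRF-VP16 array, Zc2hc1c also without E100 SRF-VP16 replicate 1 (adjusted p up to 0.084 and 0.077). The calls of Mos, Dab1 and Zxda were lost when any of 7, 6 and 9 of the 11 arrays was left out (adjusted p up to 0.17, 0.1 and 0.21), and that of Zxda also with the replicate numbers as a block.

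Lists of general cell state were also read, against 3.91% of all genes called. Of 30 cell cycle genes 1 rose and 1 fell (6.67% called), with a median of -0.48, which was 0 in E81 and -0.94 in E100, and 26 of the 30 were lower. The one that fell was Mki67, a proliferation marker, at 639 to 1673 against 2048 to 2928, and its call was lost when any of 9 of the 11 arrays was left out (adjusted p up to 0.11). The riser, Cdkn2a, an inhibitor of cyclin-dependent kinases, overlapped the controls and was lost when any of 8 arrays was omitted (adjusted p up to 0.2). Quantile normalization gave 5 lower genes in this list and division by the median 0. Of 15 lysosome genes 3 rose (20%), with a median of 0.87, and 0 without E81 SRF-VP16 replicate 2. Ctsb, a lysosomal protease, read 7421, 20190, 13111 and 18637 against 1285 to 5709, and its call was lost without that array (adjusted p = 0.069). Ctsd and Ctsa, the others, were each lost when any of 5 arrays was omitted (adjusted p up to 0.13 and 0.19). Of 7 p53 targets 2 rose (28.6%), and 0 without E100 vector replicate 2, E81 SRF-VP16 replicate 2 or E100 SRF-VP16 replicate 1. Cdkn1a, the cell cycle inhibitor p21, was 3.0-fold higher, with its call lost without each of those 3 arrays (adjusted p up to 0.11), and its second probe set rose by 2.36. Perp, a membrane protein of desmosomes, rose 3.71-fold and was lost when any of 7 arrays was omitted (adjusted p up to 0.14). Among 25 glutathione and redox genes the 1 called was Gsta4, a glutathione transferase, which fell by 1.11 (adjusted p = 0.0081). Of 18 glycolysis and 17 chaperone genes 1 and 2 rose (5.56% and 11.8%), with medians of 0.06 and 0.10, and each of the 3 calls was lost when any of 7 to 9 of the 11 arrays was left out.

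Set against each control plasmid alone, with the same SRF-VP16 arrays in both comparisons, 115 probe sets were called against vector (1.43%) and 194 against SRFdM-VP16 (2.41%). Of the 238 separating probe sets, 103 were called against vector, 177 against SRFdM-VP16, 99 against both and 57 against neither. Side by side, Igfbp6 was 8.30 ± 0.37 against vector and 8.34 ± 0.34 against SRFdM-VP16, and Krt18 was 5.25 ± 0.52 and 4.91 ± 0.48. Edn1 and Htra1 had values further apart: Edn1 was 3.72 ± 0.41 and 4.97 ± 0.38, and Htra1 was 4.38 ± 0.66 and 3.23 ± 0.61. Klf2 fell by 2.22 ± 0.36 and by 2.43 ± 0.33. Between SRFdM-VP16 and vector limma called 0 probe sets (0%), with 487 at an unadjusted p under 0.05 and a median change of -0.28. Leaving out E100 SRFdM-VP16 replicate 2 gave 1 call there.

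**Figure D4:**
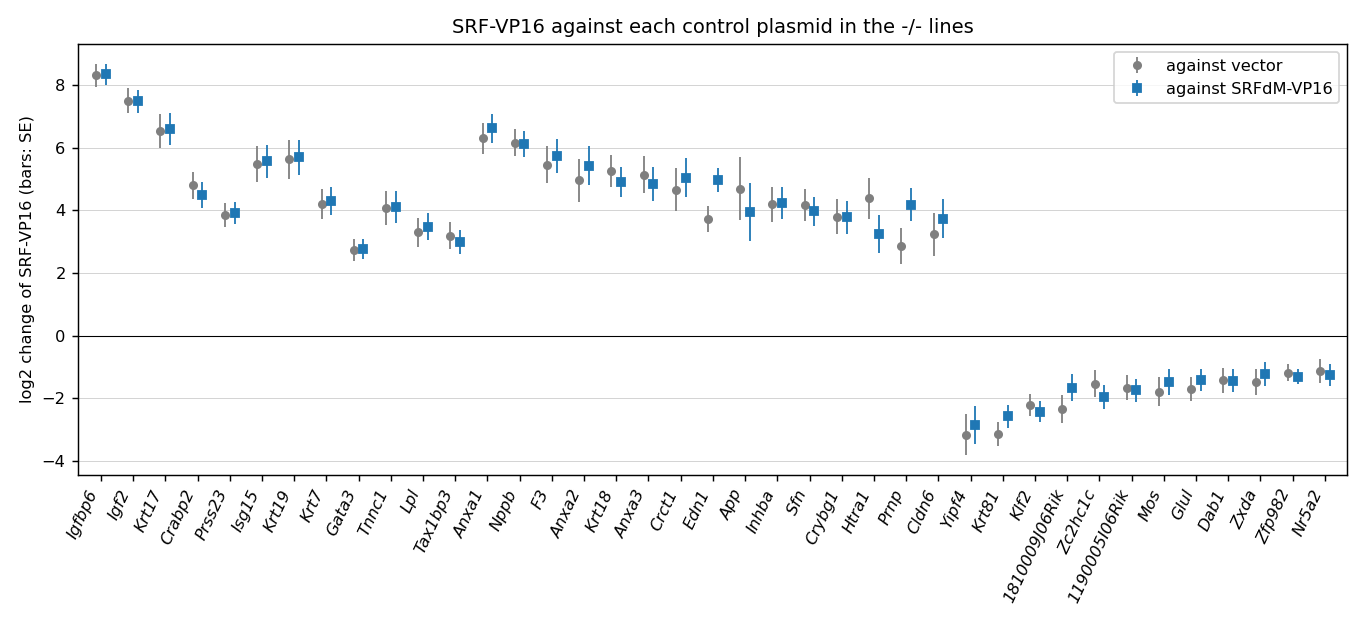
The log2 change of SRF-VP16 against vector (grey circles) and against SRFdM-VP16 (blue squares) in the -/- lines for the 39 genes named by rank, with standard errors as bars. Igfbp6 is highest against either control, at 8.30 and 8.34. The SRF-VP16 arrays are shared, and the choice of separating genes fixes that both values lie on the same side of 0.

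The change was then compared with that in E14wt and E99 in a fit over all 23 arrays with 11 residual degrees of freedom. In those lines 5 probe sets were called (0.062%). Of the 238 separating probe sets 206 had the same sign there. All 238 changed less, but they were chosen for their change in the -/- lines, so their size is compared only through the test of the difference. The difference between the pairs of lines was itself called for 24 probe sets (0.298%). Of these 22 were larger upward in the -/- lines and 2 larger downward, and 23 were among the separating ones. The filter used the 11 arrays of the -/- lines alone, so transcripts that passed it only in E14wt or E99 were left out. Without a filter 121 were called, 51 with a positive difference (-/- lines minus the others) and 70 with a negative one. Igfbp6 rose in both pairs, by 8.34 ± 0.36 in the -/- lines and 4.08 ± 0.34 in E14wt and E99. Krt17 rose by 6.59 ± 0.64 in the -/- lines and read 1.43 ± 0.61 in the others. Inhba was 4.23 ± 0.58 and -0.33 ± 0.56, Crabp2 4.65 ± 0.31 and 0.46 ± 0.30, and Tnnc1 4.10 ± 0.35 and 0.05 ± 0.34. Inhba controls were higher in E14wt and E99, at 195 to 1273, than in the -/- lines, at -151 to 243. Its E14wt SRF-VP16 duplicates disagreed, at 1380 and 154. Krt81 and Yipf4 fell in the -/- lines, at -2.89 ± 0.42 and -3.00 ± 0.45, against 0.66 ± 0.40 and 0.12 ± 0.43. Krt81 controls in E14wt and E99 ran from -12 to 614, against 317 to 640 in the -/- lines. The count of 24 became 14 without E100 SRFdM-VP16 replicate 2 and 36 without E81 SRF-VP16 replicate 1. It was 16 without E81 SRF-VP16 replicate 2, and 17 without the E14wt control arrays numbered 2, an omission chosen after seeing the data. That omission kept 15 of the 24 differences and lost 9: Inhba (adjusted p = 0.063), Yipf4 (0.12), Htra1 (0.085), Crct1 (0.079), Rhou (0.1), Gm2a (0.063), Tec (0.051), Srp19 (0.062) and A530040E14Rik (0.09).

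**Figure D5:**
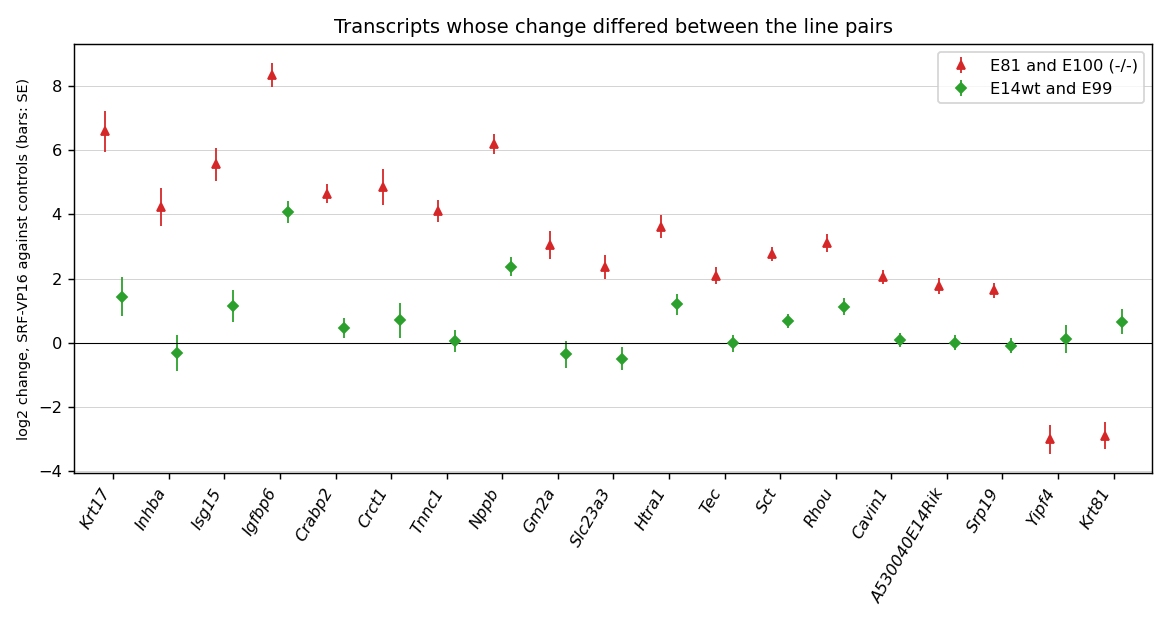
The log2 change between SRF-VP16 and both controls in E81 and E100 (red triangles) and in E14wt and E99 (green diamonds), with standard errors as bars, for 19 transcripts outside the actin and immediate-early lists whose difference was called. Igfbp6 is the highest in both pairs of lines, at 8.34 and 4.08.

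The size of the change was also compared between E81 and E100. Igfbp6 rose by 8.08 and 8.60, Anxa1 by 6.95 and 5.96, Nppb by 6.09 and 6.18, and Klf2 fell by 2.23 and 2.47. Htra1 rose by 5.23 in E81 and 2.04 in E100, and Col4a1 by 3.81 and 1.59. Neither of these differences was called, which does not show that the lines respond alike. The 1 probe set called in the test of the difference (0.0124%) was of Hcn2, a pacemaker ion channel, which is not among the separating transcripts. It changed by 0.30 ± 0.40 in E81 and -5.61 ± 0.42 in E100 (difference 5.91 ± 0.58, limma adjusted p = 0.0019), and the count was 3 without E100 SRF-VP16 replicate 1.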

How the data were processed

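Per the labels, total RNA of transfected mouse ES cells was measured on 23 arrays. The authors deposited linear intensities per probe set. Their scaling and software were not given in the sources used here. From 12502 probe sets 66 controls were left out. Values were floored at 58, the 40th percentile of all values, and log2 was taken. A probe set was tested if it exceeded its array's 40th percentile on at least 4 of 11 arrays (8059 probe sets). The 4 SRF-VP16 arrays alone could thus admit it. limma 3.58.1 in R 4.3.3 fitted line and 1 term for SRF-VP16 against both controls (8 residual degrees of freedom, intensity trend, Benjamini-Hochberg). This main fit was checked on simulated data. Comparisons with each control plasmid came from a fit with separate terms for the plasmids. The brightest probe set stood for a gene. By their suffix 36 of the 238 separating probe sets may bind related transcripts, among them those used for Igf2, Anxa1 and Crct1. "At least" marks folds with a whole group at the floor. Symbols came from the platform annotation, where 10141 probe sets had 1 symbol, 362 several and 1933 none, and 10122 matched RefSeq. Named were the 15 largest rises with at most 3 controls at the floor, the 12 rises of smallest p with more, the 12 largest falls, and up to 4 genes of each of the other lists. The members and the 26 lists were chosen with earlier results of these data known. The number of arrays limits the precision. Alternatives are given in the closing section.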

Additional observations from a re-analysis of the deposited data

Results flagged for a closer look

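The change with SRF-VP16 differed between the -/- lines and E14wt with E99 for 24 probe sets by the test of that difference (limma over 23 arrays, Benjamini-Hochberg). Given as the log2 change in the -/- lines minus that in the other lines, the values outside the actin and immediate-early lists were 5.16 for Krt17, 4.56 for Inhba, 4.42 for Isg15, 4.25 for Igfbp6, 4.19 for Crabp2, 4.16 for Crct1, 4.05 for Tnnc1 and 3.82 for Nppb. They were 3.41 for Gm2a, 2.85 for Slc23a3, 2.42 for Htra1, 2.11 for Tec, 2.10 for Sct, 1.99 for Rhou, 1.94 for Cavin1, 1.77 for A530040E14Rik and 1.72 for Srp19. The difference was negative for Krt81 (-3.55) and Yipf4 (-3.12). In the actin and immediate-early lists it was 4.27 for Egr1, 4.17 for Egr2, 3.52 for Dusp2, 3.12 for Actc1 and 1.76 for Actg1. Of the 24 differences 9 were lost without the E14wt control arrays numbered 2, among them those of Inhba (adjusted p = 0.063) and Yipf4 (0.12). Between E81 and E100 the change differed for Hcn2, by 5.91. Its 2 E81 SRF-VP16 arrays read 2252 and 2006 and its E100 arrays -367 and 7, on a probe set whose suffix marks relaxed rules of probe choice. Some duplicates without SRF-VP16 also disagreed, at 1261 and -205 in E99 with vector and 1624 and -497 in E14wt with SRFdM-VP16. The controls of E81 and E100 ran from 1005 to 3944.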

How the results depend on the processing

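Against 277 called and 238 separating probe sets, quantile normalization gave 498 (63.9% higher, against 88.1%) and 381, no filter 159 and 156, SRFdM-VP16 alone as control 126 and 125, vector alone 102 and 101, E81 alone 42 and 42, and E100 alone 89 and 89. Array quality weights gave 973 calls (60% higher) and a fit over all 23 arrays 366 (73% higher). Leaving out 1 array gave 138 to 424 called (lowest without E81 SRF-VP16 replicate 2, highest without E81 SRFdM-VP16 replicate 1; 181 without E100 vector replicate 2) and 132 to 342 separating. Without E100 SRF-VP16 replicate 1 they were 154 and 152. The replicate numbers as a block gave 337 and 244, and correlations of same-numbered differences were positive in all 10 pairs of groups (0.13 to 0.32). The labels do not say what a number marks, and with only 2 numbers the pairing is not settled. Named calls lost under the block were Zxda, Des, Klf5, Cdkn2a and P4ha1. SRFdM-VP16 against vector gave 0 to 1 call when 1 array was left out. The E81 and E100 difference gave 0 calls after division by the median and with SRFdM-VP16 alone (chosen after seeing the data), 25 without a filter and 1 to 3 without 1 array. The difference from E14wt and E99 gave 39 after quantile normalization, 121 without a filter (51 positive and 70 negative) and 14 to 36 without 1 array. No sign turned among the 72 named calls, and signs of named genes that were not called were not compared. For separating genes the rule fixes the sign where 1 array is left out and where 1 line or 1 control plasmid is used alone. It does so too under a change of filter, floor, transform, intensity trend or array weights, and in the fit over all 23 arrays. Of 72 named calls 16 were kept in every setting and 18 more in all but 1 or 2. Intensities near the floor bound what could be seen: 40% of values lay at or below it.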

Other observations

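Among separating transcripts outside every list, the following were chosen after their values were seen. Lgals1, the galactose-binding galectin 1, was bright in all controls (2602 to 6963) and read 19810, 26176, 22810 and 31955 with SRF-VP16 (2.66 ± 0.23, limma adjusted p = 1e-05). Cavin1, a coat protein of caveolae, read 5479, 6032, 12446 and 6882 against 751 to 3504 (2.10 ± 0.28). Lpp, a LIM protein of focal adhesions, read 1704, 3156, 2995 and 2871 against 255 to 636 (2.58 ± 0.30). Timp1, an inhibitor of matrix metalloproteinases, read 6738, 8030, 15174 and 6355 against 2383 to 3476 (1.58 ± 0.23). The controls of these 4 genes were above the floor on every array, so the sizes do not rest on it, and each call was kept without any 1 array.

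Ankrd1, a stretch-responsive muscle protein, read 242, 194, 456 and 130 with every control at the floor, at least 3.95-fold higher. Wwtr1, which encodes the coactivator TAZ, read 1008, 1382, 2163 and 1924 against 308 to 737 (1.40 ± 0.28), and its call was lost without E81 SRF-VP16 replicate 2 or E100 SRF-VP16 replicate 1 (adjusted p up to 0.077). Phc1, a Polycomb protein, read 4598, 4205, 2730 and 2607 against 4671 to 9265 (-0.98 ± 0.24), and Mybl2, a cell cycle transcription factor, read 8655, 8560, 6994 and 3913 against 10180 to 15578 (-0.88 ± 0.22). The calls of Phc1 and Mybl2 were lost when any of 8 and 9 of the 11 arrays was left out (adjusted p up to 0.15 and 0.11).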
